A study of Mus musculus with 6 samples.

Results

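Toll-like receptors (TLRs) and their co-receptors were followed in liver tumours of mice with and without a transgene for AEG-1, a scaffold protein encoded by Mtdh whose name stands for astrocyte elevated gene-1. The group comprised Tlr1, Tlr2, Tlr3, Tlr4, Tlr5, Tlr6, Tlr7 and Tlr9 and the co-receptor genes Cd14 and Ly96. Its members were every probe set that the platform annotation assigns to 1 of these symbols alone, which gave 14 probe sets for 10 of 10 genes, out of 22626 probe sets and 12393 named genes. The 10 genes were chosen on earlier results of these arrays, with their genotype differences known. Their own differences between genotypes are therefore described and not tested.

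Total RNA of tumours from 6 male mice was measured on 1 Affymetrix expression array per mouse. The wild-type group (WT, 3 mice) and the Alb/AEG-1 transgenic group (3 mice) had all received N-nitrosodiethylamine (DEN), a carcinogen activated in hepatocytes, once at 14 days of age at 10 µg per g body weight. Tumours were taken at 28 weeks, and the labels give the background strain of both groups as CD-1, while the embryos injected with the 5.3-kb transgene fragment came from B6CBAF1/J matings. In this line AEG-1 is placed under albumin control, which acts in hepatocytes, and immune cells of the tumours are not its target. No tumour-free liver and no uninjected mice were among the samples, and the labels do not say whether the transgenic mice descend from 1 founder. Each mouse carries its own animal number in the labels, so the arrays were treated as separate animals. The lower animal numbers belong to WT replicate 1 with Alb/AEG-1 replicates 1 and 2. The higher ones belong to WT replicates 2 and 3 with Alb/AEG-1 replicate 3, and the labels call neither range a batch.

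TLRs are membrane receptors for microbial molecules and for some molecules released by damaged cells. They signal through the adaptors MyD88 and TRIF to NF-kappaB, AP-1 and interferon regulatory factors, which switch on cytokine and interferon genes. In the liver they are known from Kupffer cells, other leukocytes, sinusoidal endothelium and, for several members, hepatocytes, which all meet products of gut bacteria from the portal blood.

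The array values are log2 expression levels on which 1 unit is a doubling. The brightest Mtdh probe set read 9.32, 9.03 and 9.16 in WT and 9.57, 9.40 and 9.15 in transgenic tumours (0.20 ± 0.13), and all 6 Mtdh probe sets overlapped between the groups. The labels do not give the species of the transgene or say whether these mouse probes match its transcript, so Mtdh gives no check of the genotype labels. The array medians lay between 5.82 and 5.84. The submitters' quantile normalization makes them alike, so they are no check of the samples. The 9 measured hepatocyte markers averaged 13.40 to 13.52 on every array, so the liver identity of the samples was plain in both groups. Member probe sets were dim: 7 of 14 had a mean below the lower quartile of all probe sets (4.27) and 13 of 14 lay below the median (5.83). The table has no detection calls, so a dim value cannot be told apart from background. In bulk tumour RNA, fewer cells of a type and less RNA per cell cannot be told apart either. The small number of arrays, 3 a group, limits the precision.

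Promoter sequences are shown for Tlr1 and Tlr5, the genes with separated groups and a RefSeq window, and for Tlr6 and Tlr2, to set Tlr1 beside its neighbour on the chromosome and the gene of its partner chain. Each line holds the 250 bases before the most upstream RefSeq start in GRCm38.p6, 5′ to 3′ on the gene's strand, with capitals for motif matches. The letters searched on both strands were the interferon-stimulated response core (a pair of GAAA with any 2 bases between), GAGGAA (PU.1 core), TGANTCA (AP-1 core) and the kappaB consensus.
Tlr1, chr5:64933559-64933808, minus strand: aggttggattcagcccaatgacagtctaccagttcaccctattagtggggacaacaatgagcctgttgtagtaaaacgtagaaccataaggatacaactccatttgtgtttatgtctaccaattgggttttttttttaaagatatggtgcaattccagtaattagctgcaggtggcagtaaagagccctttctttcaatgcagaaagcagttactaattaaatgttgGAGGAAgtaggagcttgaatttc
Tlr6, chr5:64960049-64960298, minus strand: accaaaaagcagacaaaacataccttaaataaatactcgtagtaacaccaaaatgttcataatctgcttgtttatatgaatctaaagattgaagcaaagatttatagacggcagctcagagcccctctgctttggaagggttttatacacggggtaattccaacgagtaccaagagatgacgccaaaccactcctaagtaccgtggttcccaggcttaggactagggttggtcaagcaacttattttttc
Tlr2, chr3:83841609-83841858, minus strand: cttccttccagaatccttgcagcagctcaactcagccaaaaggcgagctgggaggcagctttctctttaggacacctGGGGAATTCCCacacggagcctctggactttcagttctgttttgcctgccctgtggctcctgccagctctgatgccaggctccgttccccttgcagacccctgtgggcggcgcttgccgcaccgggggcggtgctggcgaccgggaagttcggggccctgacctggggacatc
Tlr5, chr1:182954538-182954787, plus strand: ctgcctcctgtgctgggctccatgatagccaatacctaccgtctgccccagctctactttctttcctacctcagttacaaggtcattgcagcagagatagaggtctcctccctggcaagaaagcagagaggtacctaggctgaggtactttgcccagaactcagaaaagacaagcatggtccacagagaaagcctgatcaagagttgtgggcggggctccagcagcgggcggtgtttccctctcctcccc

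The Tlr1 window holds 1 PU.1 core, which starts 23 bases before the start site, and the Tlr2 window holds a pair of overlapping kappaB matches. The Tlr6 and Tlr5 windows hold none of these letters. Another RefSeq start of Tlr6 has a pair of overlapping interferon-stimulated response cores in its window, and the other start of Tlr1 has no match. Of 32851 such windows in the table, 23.3% hold the PU.1 core, 2.98% the interferon-stimulated response core, 6.75% the AP-1 core and 7.25% the kappaB consensus. These are matches of letters, not measured binding sites. For 6 of the 10 member genes the RefSeq table gave a window.

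Tlr1 was the member that differed most between genotypes. Its receptor pairs with TLR2 to recognise triacylated bacterial lipopeptides. The single probe set (1449049_at) read 4.21, 4.39 and 4.19 in the WT tumours and 4.91, 5.56 and 5.18 in the transgenic tumours. All transgenic values exceeded all WT values. The means were 4.26 ± 0.11 (SD, n = 3) and 5.22 ± 0.33, a difference of 0.95 ± 0.16 log2 (SE) or 1.93-fold. The WT mean lay just under the lower quartile of all probe sets (4.27), at a level that cannot be told apart from background, so the fold is that of the measured values and not of the transcript. Among mice of the lower animal numbers the difference was 1.02, and among those of the higher numbers 0.89. Leaving out each array in turn gave 0.78 (without Alb/AEG-1 replicate 2) to 1.11 (without Alb/AEG-1 replicate 1).

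**Figure D1:**
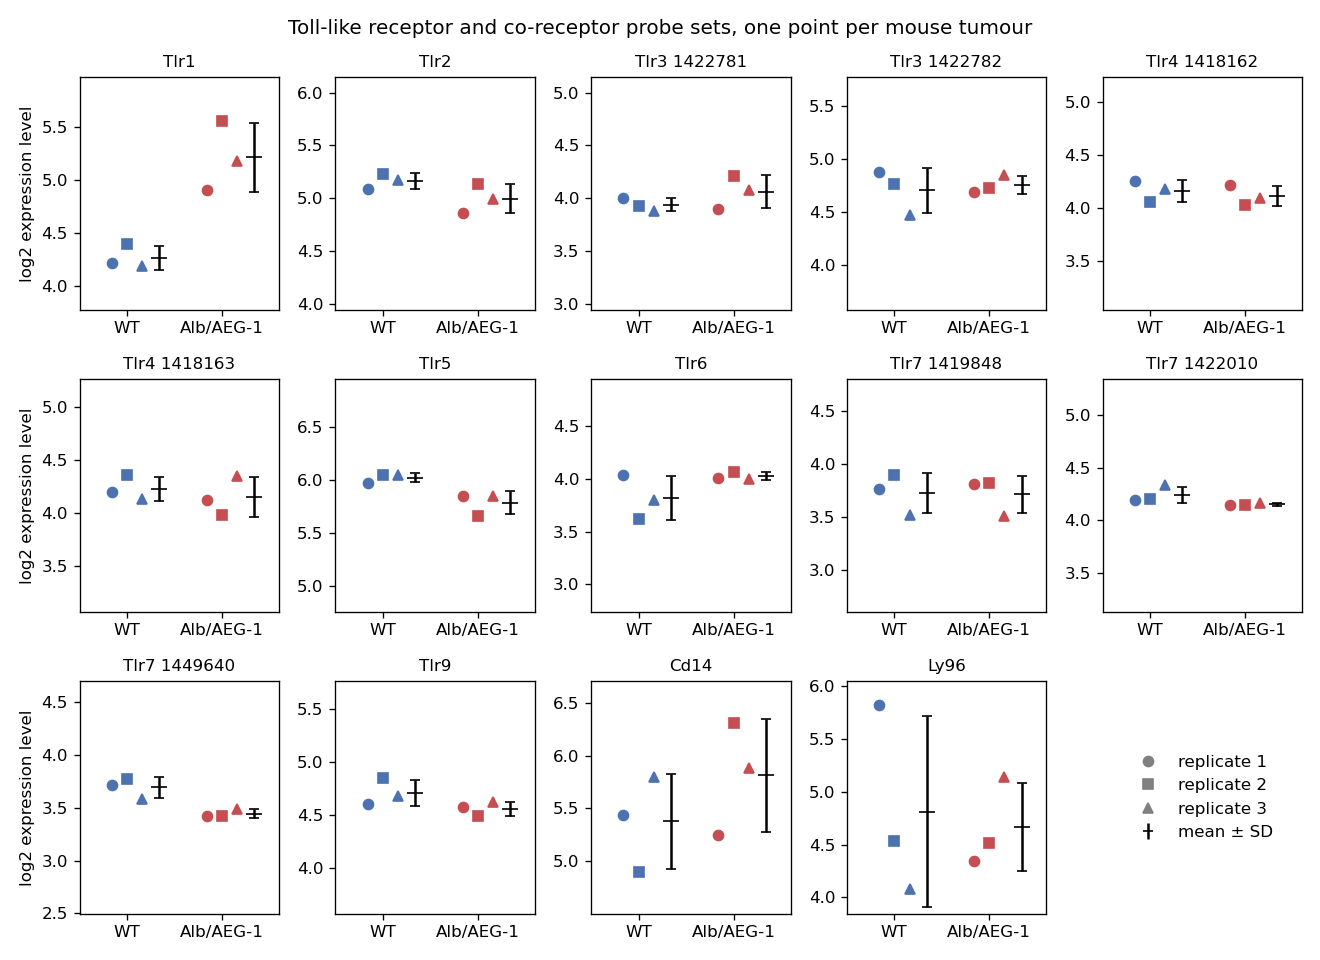
Log2 expression level (vertical axes, each spanning the same number of log2 units) of the 14 member probe sets in 3 WT (blue) and 3 Alb/AEG-1 (red) tumours. Symbols mark replicates and bars the mean ± SD. The Tlr1 groups are separated (4.19 to 4.39 against 4.91 to 5.56), Tlr5 is slightly lower in every Alb/AEG-1 tumour, and Cd14 and Ly96 scatter widely within both groups.

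The genes of the partner chains did not separate the genotypes. Tlr2, whose product forms the common chain of the lipopeptide receptors, read 5.09, 5.23 and 5.17 in WT and 4.86, 5.14 and 4.99 in transgenic tumours. The groups overlapped, with a difference of -0.17 ± 0.10. Tlr6, whose product pairs with TLR2 for diacylated lipopeptides, read 4.03, 3.62 and 3.80 in WT and 4.01, 4.07 and 4.0 in transgenic tumours. Here WT replicate 1 lay among the Alb/AEG-1 values, and the difference was 0.21 ± 0.12 (0.32 without WT replicate 1, 0.11 without WT replicate 2). The probe set of Tlr6 lay low on the scale, at the 19.3rd percentile of all probe sets by mean.

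The lipopolysaccharide receptor genes showed no separation of the groups. Tlr4, the signalling receptor for lipopolysaccharide, is covered by a pair of probe sets. That with the higher mean (1418163_at) read 4.20, 4.36 and 4.13 in WT and 4.13, 3.98 and 4.35 in transgenic tumours, a difference of -0.08 ± 0.12 (-0.18 without Alb/AEG-1 replicate 3, 0.01 without Alb/AEG-1 replicate 2). The other (1418162_at) differed by -0.05 ± 0.09. Both values were smaller than their errors.

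Cd14, which encodes the protein that hands lipopolysaccharide to the receptor complex, read 5.43, 4.90 and 5.79 in WT tumours. In transgenic tumours it read 5.25, 6.31 and 5.88. Replicates 2 and 3 of the Alb/AEG-1 group lay above all WT arrays, while replicate 1 lay among them. The means were 5.38 ± 0.45 (SD, n = 3) and 5.81 ± 0.53, a difference of 0.44 ± 0.30 log2 (SE). That difference depended on single arrays: it was 0.19 without Alb/AEG-1 replicate 2, 0.20 without WT replicate 2 and 0.72 without Alb/AEG-1 replicate 1.

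Ly96 encodes MD-2, the small secreted protein that binds lipopolysaccharide on TLR4. It was the most variable member, with WT values of 5.82, 4.54 and 4.08 and Alb/AEG-1 values of 4.35, 4.52 and 5.14. The highest value thus came from WT replicate 1 and the next from Alb/AEG-1 replicate 3, and the group ranges overlapped almost completely. The genotype difference was -0.14 ± 0.42 log2 (SE), with SDs of 0.90 in WT and 0.42 in transgenic tumours. Only 1.01% of all probe sets had a wider pooled spread within groups, against 2.16% for Cd14 and 12.1% for Tlr1.

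**Figure D2:**
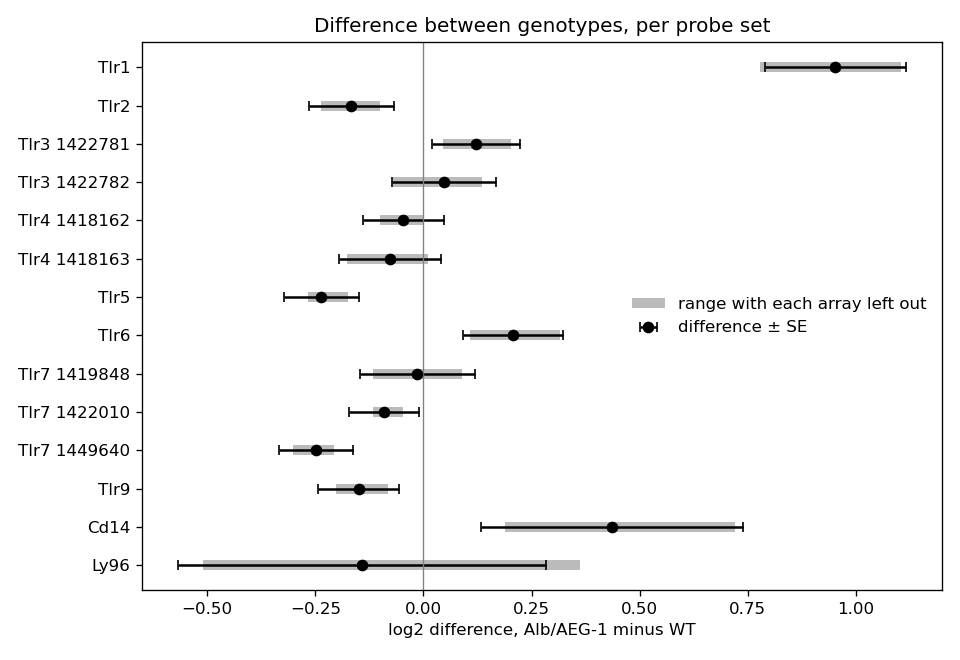
Log2 difference between Alb/AEG-1 and WT tumours (horizontal axis) for each of the 14 member probe sets; points with bars give the difference ± SE and grey bands the range when each array is left out. The Tlr1 band runs from 0.78 to 1.11, and that of Ly96 from -0.51 to 0.36. With groups that do not overlap, the Tlr1 band could not reach 0.

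Tlr5, encoding the receptor for bacterial flagellin, was the member brightest relative to the array, at the 51.2nd percentile. It read 5.98, 6.05 and 6.05 in WT and 5.85, 5.66 and 5.85 in transgenic tumours. All Alb/AEG-1 values lay below all WT values, but by a small margin. The means were 6.02 ± 0.04 and 5.79 ± 0.11, a difference of -0.24 ± 0.09 log2 (SE), or 1.18-fold. Among the lower animal numbers it was -0.22, among the higher -0.20, and -0.27 to -0.17 with each array left out.

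The endosomal receptors for nucleic acids differed little. Tlr9, for unmethylated CpG DNA, read 4.60, 4.85 and 4.68 in WT and 4.57, 4.49 and 4.62 in transgenic tumours, which overlap at 1 value, with a difference of -0.15 ± 0.09. Tlr3, for double-stranded RNA, has a probe set of a type open to cross-binding (1422782_s_at, 0.05 ± 0.12, and -0.07 without WT replicate 3) and a dimmer, more specific one (1422781_at, 0.12 ± 0.10). Both overlapped between genotypes.

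Tlr7, for single-stranded RNA, is covered by 3 probe sets that did not give the same picture. The brightest (1422010_at) read 4.19, 4.20 and 4.33 in WT and 4.15, 4.14 and 4.17 in transgenic tumours, a difference of -0.09 ± 0.08 without overlap. A second (1449640_at), at the 13.7th percentile, read 3.72, 3.78 and 3.59 against 3.42, 3.42 and 3.49, a difference of -0.25 ± 0.09. The third (1419848_x_at), also of a cross-binding type, differed by -0.01 ± 0.13 and overlapped. All 3 lay below the lower quartile of the arrays.

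Over the group, 4 of the 10 genes had a positive difference and 6 a negative one, with a median of -0.08 log2 against -0.01 over all 12393 genes. The median turned to 0.022 without WT replicate 1. In limma, 0 of 14 member probe sets passed an adjusted p of 0.05, where 0.00442% of all probe sets did. At an unadjusted p below 0.05 there were 3 (Tlr1, Tlr5 and the Tlr7 probe set 1449640_at), where 8.06% of all did, 1 higher (3.68% of all) and 2 lower (4.38% of all) in the transgenic group. The groups did not overlap in 4 probe sets, against 14.7% of all: 1 was higher in transgenic tumours (Tlr1; 6.28% of all) and 3 were lower (8.38% of all). Only Tlr1 also differed at least 1.5-fold, as 0.809% of all probe sets did together with that p (0.685% upwards). Since the members were proposed with this contrast known, nothing is read from these counts.

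The range of the animal numbers is a contrast on which the members were not chosen. With genotype as a term in limma, 0 of 14 member probe sets passed an adjusted p of 0.05 for the range (0.00442% of all) and 0 an unadjusted p of 0.05 (8.76% of all). The range differences ran from -0.40 (Ly96) to 0.17 (Tlr4). A separate question was whether the genotype difference itself changed with the range. Ly96 differed by -1.39 among the lower and by 0.84 among the higher numbers, and the interaction was 2.22 ± 0.31 log2 (SE; limma, unadjusted p = 4.25e-04, adjusted p = 0.507 over all probe sets). It thus did not pass over the table. It was the 1 of 14 member probe sets with an unadjusted interaction p below 0.05, as 4.82% of all probe sets had, and 0 passed the adjusted threshold (0% of all). The lower range holds a single WT array, that with the high Ly96 value, and the higher range a single Alb/AEG-1 array. For Tlr1 the interaction was -0.14 ± 0.39.

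**Figure D3:**
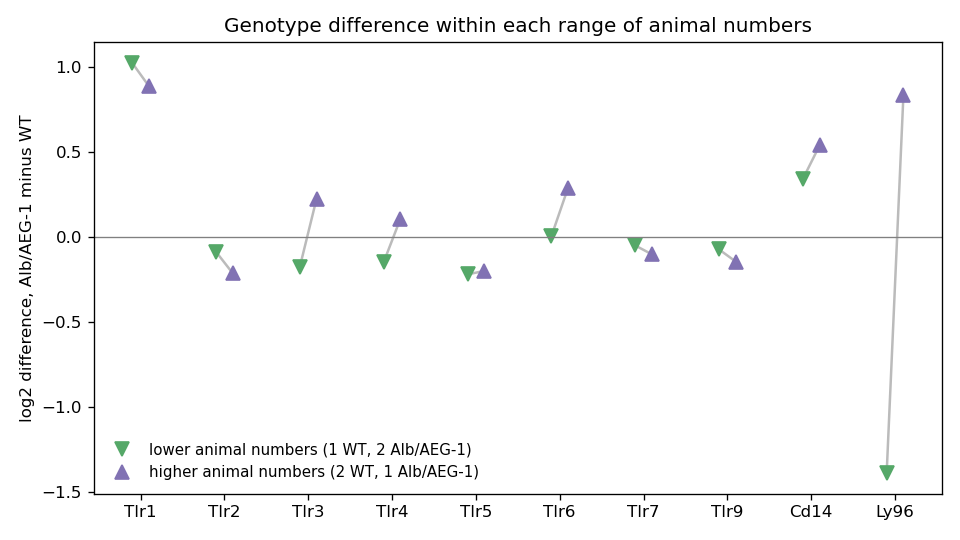
Log2 difference between Alb/AEG-1 and WT tumours (vertical axis) for the 10 member genes, separately within the lower (1 WT, 2 Alb/AEG-1) and the higher (2 WT, 1 Alb/AEG-1) animal numbers. Tlr1 (1.02 and 0.89) and Tlr5 (-0.22 and -0.20) are alike in both, and Ly96 runs from -1.39 to 0.84.

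Cells that carry these receptors were followed through marker genes. The marker lists were chosen with earlier results of these data known, so nothing is read from the counts of markers. The macrophage and Kupffer cell list had 16 measured markers, of which 14 (against 47.8% of all genes) had a positive difference, with a median of 0.42 log2. In limma 0 passed over all probe sets, and 5 had an unadjusted p below 0.05, where 8.33% of all genes did. Those 5, named after their values were seen, were Mpeg1 (0.90 ± 0.25), C1qb (0.76 ± 0.21), Aif1 (0.55 ± 0.15, a cross-binding type of probe set), Cd5l (0.54 ± 0.17) and C1qc (0.42 ± 0.17). Among the lower and the higher animal numbers, Mpeg1 differed by 0.71 and 0.93, C1qb by 0.23 and 1.13, and Aif1 by 0.27 and 0.78. Cd5l differed by 0.14 and 0.99, and C1qc by 0.006 and 0.75. The 2 negative markers, also named after their values were seen, were Fcgr1 (-0.22 ± 0.12) and Folr2 (-0.08 ± 0.32). The mean level of all 16 markers was 7.39, 7.0 and 7.17 in WT and 7.27, 7.63 and 7.82 in transgenic tumours. Of the 16 markers 1 lay below the lower quartile. The groups overlapped in this mean, with differences of 0.07 among the lower and 0.73 among the higher animal numbers. Taken singly, 4 of the 16 markers (Mpeg1, C1qb, Aif1 and Cd5l) were higher without overlap, as were 6.28% of all probe sets. The part of these cells in the Tlr1 and Cd14 values was not tested.

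Other leukocyte markers were dimmer on average, and their list means overlapped between the groups. Neutrophil markers averaged 4.40 to 4.89 in WT and 4.46 to 4.82 in transgenic tumours, monocyte markers 4.67 to 4.80 and 4.68 to 4.84, and B cell markers 4.5 to 4.58 and 4.37 to 4.60. Dendritic cell markers averaged 4.61 to 4.80 and 4.51 to 4.65, and T and NK cell markers 4.58 to 4.71 and 4.44 to 4.62. Negative differences were found for 6 of 7 dendritic, 9 of 11 T and NK, 5 of 7 B cell, 6 of 10 neutrophil and 2 of 6 monocyte markers. Markers of the sinusoidal endothelium, which takes up bacterial products from the blood, averaged 6.93 to 7.09 and 6.99 to 7.10. Stellate cell markers averaged 6.99 to 7.22 and 7.05 to 7.20, and cholangiocyte markers 4.42 to 4.49 and 4.42 to 4.70.

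**Figure D4:**
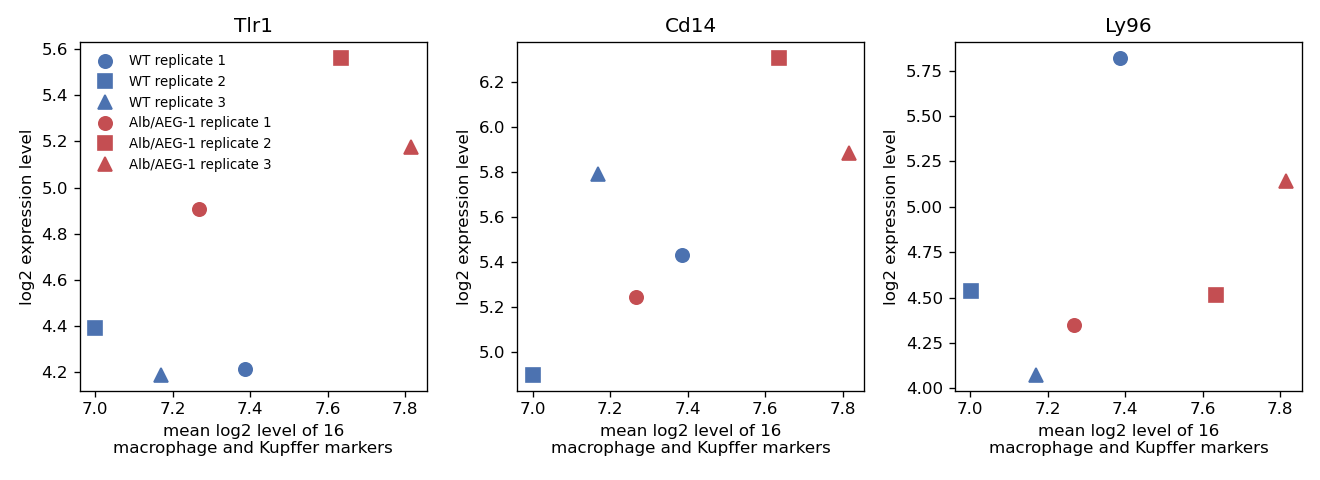
Log2 level of Tlr1, Cd14 and Ly96 (vertical axes) against the mean log2 level of 16 macrophage and Kupffer cell markers (horizontal axes), 1 point per tumour, WT blue and Alb/AEG-1 red. The marker means run from 7.0 to 7.39 in WT and from 7.27 to 7.82 in Alb/AEG-1 tumours and overlap. The Tlr1 levels (4.19 to 4.39 and 4.91 to 5.56) do not overlap, nor do 4 of the 16 markers taken singly. The part of these cells in the Tlr1 values was not tested.

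The genes that act with and after the receptors were described through 8 lists of 117 genes, 94 of them measured. Of these, 47 had a positive and 47 a negative difference, and the median was near 0. In limma 0 of 94 passed an adjusted p of 0.05 over all probe sets. At an unadjusted p below 0.05 there were 12 (12.8%), 9 of them positive and 3 negative, against 8.33% of all genes. The lists were chosen with earlier results of these data known, so no enrichment is read from these shares. In every list named here the 3 genes with the smallest p are given, and each had an adjusted p of 0.596 or more. Where their groups did not overlap, this is stated. Over all probe sets, 6.28% were higher and 8.38% lower without overlap.

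Among 11 genes listed under accessory proteins, a broad list, 8 had a positive difference (median 0.12). Cd36, a scavenger receptor that assists the TLR2 and TLR6 pair and takes up fatty acids, read 6.48, 6.21 and 6.95 in WT and 7.34, 7.06 and 7.64 in transgenic tumours, a difference of 0.80 ± 0.21 log2 without overlap. Cd44, a hyaluronan receptor, differed by 0.54 ± 0.18, by 0.16 among the lower and 0.91 among the higher numbers, and was dim (24.0th percentile). Pigr, which the list also holds although it encodes the epithelial carrier of IgA, differed by -0.14 ± 0.09. Lbp and Unc93b1, chosen after their values were seen because they serve the members directly, differed by 0.16 ± 0.15 and 0.003 ± 0.093. Lbp encodes the serum protein that delivers lipopolysaccharide to CD14, and Unc93b1 the chaperone that brings endosomal TLRs to their compartment.

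For Tlr8, the 1 measured member of 4 remaining receptors, the difference was -0.20 ± 0.15, with overlapping groups. The 3 measured adaptors were also close between genotypes. Myd88, the adaptor of nearly all TLRs, differed by 0.09 ± 0.08, Tirap, which bridges it to TLR2 and TLR4, by 0.08 ± 0.10, and Pik3ap1, a link to phosphoinositide 3-kinase, by -0.17 ± 0.12. Of 17 kinases and ubiquitin ligases 12 were positive (median 0.03). Peli2, a ligase of the IRAK complex, differed by -0.40 ± 0.12 without overlap (a cross-binding type of probe set). Tab3, a partner of the kinase TAK1, differed by 0.40 ± 0.13, also without overlap. Ube2n, the enzyme for K63-linked ubiquitin chains, differed by 0.24 ± 0.10.

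Among 13 transcription factors 7 were positive (median 0.05). Irf7, the interferon regulatory factor downstream of TLR7 and TLR9, read 7.02, 7.35 and 7.32 in WT and 7.70, 7.68 and 7.58 in transgenic tumours, a difference of 0.42 ± 0.11 without overlap. Rel, an NF-kappaB subunit, differed by -0.21 ± 0.10 and was dim (14.3rd percentile). Fos, a component of AP-1, differed by 1.67 ± 0.86, from Alb/AEG-1 values of 8.82, 5.98 and 9.76 against 6.03, 7.04 and 6.47. Replicate 2 of that group therefore lay below every WT array.

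Among 13 inhibitors of the pathway 5 were positive (median -0.01). Zfp36, which destabilises cytokine mRNAs, differed by 0.87 ± 0.34, Inpp5d, the phosphatase SHIP1, by -0.12 ± 0.09 and Tnip1, a partner of A20, by -0.17 ± 0.13. Of 24 target genes 18 had a negative difference and 6 a positive one (median -0.07), where 47.8% of all genes had a positive one. Some of the 24, mostly negative ones, lay below the lower quartile of all probe sets. There a value cannot be told apart from background, so nothing is read from this count. The chemokine gene Cxcl1 differed by 1.17 ± 0.46, but by 0.23 among the lower and 1.96 among the higher animal numbers. Cxcl10, an interferon-induced chemokine, differed by 0.34 ± 0.13 and Icam1, a leukocyte adhesion molecule, by 0.56 ± 0.24. The classic cytokine targets Tnf, Il1b and Il6, named after their values were seen, differed by -0.08 ± 0.10, -0.40 ± 0.28 and -0.17 ± 0.10. Il6 lay at the 3.1st percentile of all probe sets, so its value cannot be told apart from background.

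Pattern receptors outside the TLR family went in both directions, with 7 of 12 positive (median 0.02). Ifih1, the cytoplasmic sensor of long double-stranded RNA, differed by 0.38 ± 0.14 without overlap. Sting1, the adaptor of cytoplasmic DNA sensing, differed by -0.23 ± 0.09, also without overlap. Clec4d, a C-type lectin, differed by -0.26 ± 0.11 without overlap (a cross-binding type of probe set, at the 19.5th percentile).

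**Figure D5:**
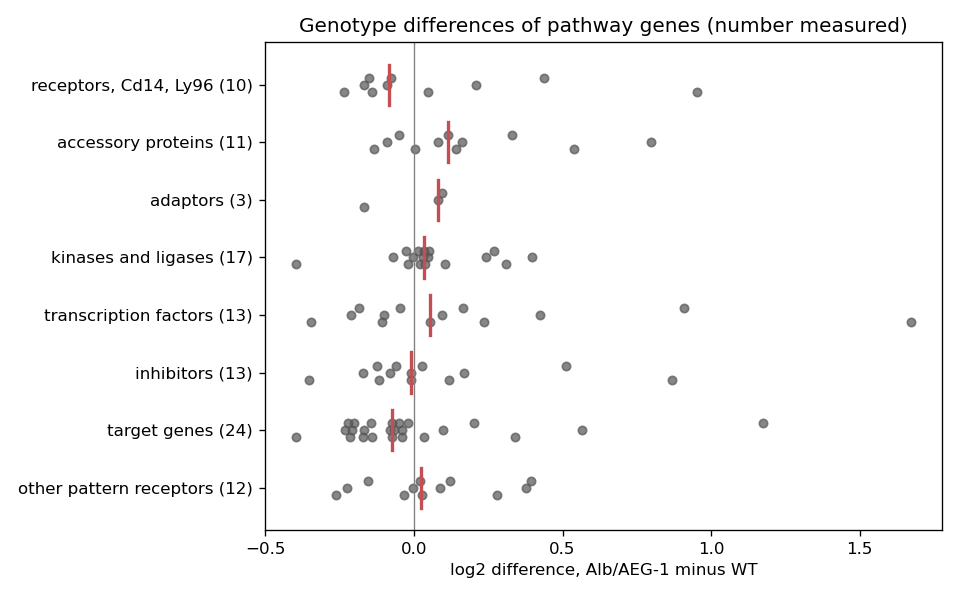
Log2 difference between Alb/AEG-1 and WT tumours (horizontal axis) for each measured gene of the receptor group and of 7 lists around it; dots are genes and red bars medians, and the list of remaining receptors (Tlr8) is not drawn. Medians lie between -0.08 and 0.12, with single genes such as Fos (1.67), Cxcl1 (1.17) and Tlr1 (0.95) far from them.

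Genes with the array pattern most like that of Tlr1 were sought among the 182 other genes that differed at least 1.5-fold. Likeness was the root mean square distance between the 6 values after each gene was centred on its own mean. The closest were Anxa2, a membrane-binding annexin (0.16 log2), Pold4, a DNA polymerase delta subunit (0.16), Pygb, a glycogen phosphorylase (0.20), Oas1a, an interferon-induced sensor of double-stranded RNA (0.20), and the non-coding Snhg11 (0.20). Among the members Cd14 (0.43) and Tlr6 (0.44) were nearest to Tlr1 and Ly96 (0.82) farthest. Tlr3, which differed by only 0.05 between genotypes, lay at 0.50, so 0.43 and 0.44 mark little likeness. With 6 arrays many genes look alike, and the candidates had already been filtered on a difference between the same groups.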

How the data were processed

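Per the submitters' processing notes, the authors processed the arrays with RMA (no version given), which corrects the background, quantile-normalizes and summarizes probes per probe set, so the deposited values are log2 levels. A genome build is not given in the sources used here, and the scanner files were not used here. Per the labels, biotin-labelled cRNA was made from 5 µg of total RNA.

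From 22690 probe sets, 64 Affymetrix controls were left out. Of the rest, 20380 had 1 gene symbol, 691 several and 1555 none. Symbols were updated by gene ID against RefSeq GRCm38.p6 (20351 matched). The probe set with the highest mean stood for a gene.

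Differences (Alb/AEG-1 minus WT) were fitted with limma 3.58.1 in R 4.3.3 (lmFit, eBayes, 2-sided, Benjamini-Hochberg over all 22626 probe sets, threshold 0.05), and the fit was tested on simulated data. Adjusted p-values are over all probe sets. Replicates were numbered in accession order. The members and gene lists were chosen with earlier results of these data known. Genes named besides the members were, in each pathway list, the 3 with the smallest unadjusted p and, for likeness, the 5 nearest to the member with the largest difference; others are marked as chosen later. Motif counts used sequence before the start only. Plots were drawn with matplotlib 3.10.9.

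Alternatives were trend or robust moderation, array weights, quantile normalization, median centring, the animal number range as a term, dim (lowest 25%) or cross-binding probe sets left out, averaging a gene's probe sets and each array left out.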

Additional observations from a re-analysis of the deposited data

Results flagged for a closer look

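For Ly96 and the cross-binding Tlr3 probe set 1422782_s_at every Alb/AEG-1 array lay on one side of the WT arrays within the lower animal numbers and on the other side within the higher. The difference in the genotype effect (higher minus lower numbers) was 2.22 ± 0.31 log2 for Ly96 (limma interaction, adjusted p = 0.507; 0.371 with trend moderation). For that Tlr3 probe set it was 0.40 ± 0.23 (adjusted p = 0.962; 0.956 with trend moderation). Neither passed over all probe sets. The other Tlr3 probe set, 1422781_at, was not opposed (0.05 and 0.17). Such opposed pairs occurred in 20.5% of all probe sets, and in 3 of the 14 member probe sets, the third being a Tlr7 probe set that does not stand for its gene.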

How the results depend on the processing

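Over all probe sets the count past the adjusted p of 0.05 was 1, against 0 when a term for the animal number range was added, 2 with trend moderation, and 0 to 1 with each array left out (0 without WT replicate 1, WT replicate 2 or Alb/AEG-1 replicate 3). The count at an unadjusted p below 0.05 and at least 1.5-fold was 183, and 150 to 361 with each array left out (361 without WT replicate 1, 318 without Alb/AEG-1 replicate 3). The median member difference of -0.08 was -0.13 to 0.022 with each array left out, the latter without WT replicate 1. It was -0.14 with dim probe sets left out, which leaves fewer members, -0.03 with quantile normalization and -0.05 with a term for the animal numbers. The count for the animal number range went from 1 to 9 with no genotype term, and that for the interaction from 0 to 1 with trend moderation, a probe set that is no member. The causes were not tested. Pathway genes past the threshold stayed at 0 in every alternative run, and the number of member genes with a positive difference was 3 to 5. Tlr1 kept its direction in all of them. Its groups do not overlap, so no left-out array could have reversed it, and nothing is read from this. A setting meant for linear values was not run, since the values are log2. No paired analysis was possible because the replicate numbers were given in accession order and pair no mice. Dim probe sets limit what can be said of Tlr3, Tlr4, Tlr6 and Tlr7, and of the WT level of Tlr1, whose overall mean exceeds the lower quartile through the transgenic arrays.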

Other observations

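Jun and Dusp1, chosen after their values were seen, varied widely within both genotypes. Jun, the partner of Fos in AP-1, read 5.93, 8.47 and 7.72 in WT and 8.90, 6.53 and 9.41 in transgenic tumours, a difference of 0.91 ± 0.85 log2. Dusp1, a phosphatase of MAP kinases, read 8.61, 11.51 and 10.35 against 10.77, 9.84 and 11.40, a difference of 0.51 ± 0.70. In both genes, and in Fos and Zfp36, WT replicate 1 was the lowest array of its group. Alb/AEG-1 replicate 2 was the lowest of its own group in the same genes.

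Among the 10 measured neutrophil markers 4 had a positive and 6 a negative difference. The pair without overlap, named after their values were seen, was Mpo (-0.35 ± 0.10, at the 16.2nd percentile of all probe sets) and Csf3r (-0.28 ± 0.11, at the 48.8th). Of all probe sets, 8.38% were lower without overlap. Among the 4 positive markers were S100a8 (0.53 ± 0.60, a cross-binding type of probe set) and S100a9 (0.36 ± 0.44). Both overlapped between the groups and were also named after their values were seen. S100a8 differed by 1.92 among the lower and by -0.68 among the higher animal numbers, and S100a9 by 1.42 and -0.62. Marco, a scavenger receptor of macrophages also chosen after its values were seen, differed by 0.39 ± 0.20, by 0.18 among the lower and 0.87 among the higher animal numbers, and the genotypes did not overlap.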
